A study of Homo sapiens with 9 samples.

Results

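RNU1-1, RNU1-3, RNVU1-18 and RNVU1-7, near-identical copies of the U1 small nuclear RNA, were followed over 9 Illumina bead arrays of HEK293, an established line derived from human embryonic kidney. Every probe with one of these gene symbols was taken, which gave 4 probes, 1 for each copy, among the 47231 probes of the array and the 11629 genes with a named probe. Only 15467 of the 47231 probes carried a single gene symbol here, so further probes for these copies may be among the rest. The copies were chosen from their signals on these same 9 arrays, with the group differences known, so their levels and differences are given as a description and no p-value is attached to them. The arrays fell into 3 groups of 3: cells carrying an shRNA against Amot (AMOT shRNA), cells carrying an shRNA against Yap (YAP shRNA), and wild-type cells (WT). AMOT encodes angiomotin, a scaffold of cell junctions that binds YAP, and YAP1 encodes the transcriptional coactivator of the Hippo pathway. The sample titles call the shRNA groups knockouts, the design text calls them knockdowns, and a group with a control hairpin is not among the samples. Effects of carrying a hairpin and of losing its target therefore cannot be told apart in a comparison with WT. Per the design text the 3 arrays of a group came from separate experiments.

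U1 RNA is the RNA core of the U1 small nuclear ribonucleoprotein (snRNP), which pairs with the 5′ splice site at the start of spliceosome assembly and also restrains premature cleavage and polyadenylation of transcripts. RNA polymerase II transcribes it with the help of the SNAPc factor, the Integrator complex cuts its 3′ end, and the SMN complex loads a ring of Sm proteins onto it in the cytoplasm before it returns to the nucleus. The mature RNA ends without a poly(A) tail. Per the labels the RNA was amplified and biotin-labelled with a TargetAmp Nano kit, a method that normally primes on poly(A). Which U1 molecules gave rise to the signals was not tested, and a change of signal cannot be read here as a change of mature U1.

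All 4 genes are annotated as snRNA in GRCh38.p14, are 164 bases long and lie on chromosome 1. RNU1-1 lies at 16514122 to 16514285 and RNU1-3 at 16666785 to 16666948. RNVU1-18 lies at 143729407 to 143729570 and RNVU1-7 at 148038753 to 148038916. The gene table lists 144 U1 loci, 123 of them pseudogenes; all 21 loci of snRNA type are on chromosome 1, and 17 of these had no probe named here. Since the copies are nearly the same in sequence, a probe may bind RNA of several of them, including copies without a named probe. The 4 probes are thus not 4 independent measurements.

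Array signals were background-corrected, quantile-normalized and put on a log2 scale, on which a difference of 1 is a doubling. A probe was tested where it was detected on at least 3 of the 9 arrays, and 22375 probes were. The 4 U1 probes were detected on all 9 arrays. The hairpin targets were low in their own groups. AMOT averaged 10.07 ± 0.13 in AMOT shRNA, 13.71 ± 0.05 in YAP shRNA and 14.29 ± 0.07 in WT (SD, n = 3), an 18.7-fold lower mean in AMOT shRNA than in WT (limma adjusted p = 3.8e-08). YAP1 was 3.54-fold lower in YAP shRNA than in WT (limma adjusted p = 3.2e-06). AMOT was also lower in YAP shRNA than in WT, by 1.49-fold (limma adjusted p = 0.0017). Median raw intensities of the 9 arrays ran from 174.7 to 208.1, and 19831 to 22187 probes were detected, WT 1 having the fewest. Of 7 HEK293 marker genes, 5 had a named probe; VIM, KRT8, NEFL and NEFM were detected on all 9 arrays and KRT18 on 5. The summed level of the 5 ran from 35700 to 43100 in AMOT shRNA, from 27500 to 28300 in YAP shRNA and from 23200 to 24400 in WT. VIM, by far the brightest, made up most of this sum. Its mean log2 level was 15.22 in AMOT shRNA, 14.52 in YAP shRNA and 14.35 in WT. NEFM went the other way in AMOT shRNA, at 10.22 against 11.17 in WT. The median log2 difference of the 5 was -0.01 in AMOT shRNA against WT and 0.17 in YAP shRNA against WT. The 5 endothelial markers had no named probe. A probe was named for 2 of 5 leukocyte markers (CD14 and CD79A) and 2 of 5 fibroblast markers (COL1A1 and LUM). Their summed levels were at most 229 and 178 on any array. CD14, CD79A and COL1A1 were detected on all 9 arrays and LUM on 5. In AMOT shRNA against WT, CD14 (6.92 against 6.31) and LUM (6.50 against 5.77) were higher and passed limma's test. CD79A (6.23 against 6.76) and COL1A1 (6.05 against 6.42) had lower means there and did not pass. The part of these markers in the results below was not tested.

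One WT array stood apart in the short RNAs. On WT 1 all 4 U1 probes were lower than the mean of WT 2 and WT 3, with a median difference of -0.66 on the log2 scale. Of 137 tested probes for other short non-coding RNAs, 100 were lower on WT 1 and 15 (10.9%) were lower by more than 1, with a median difference of -0.16. Over all tested probes the median difference was 0.01, and 192 probes (0.858%) were lower by more than 1. Set against the rest of its own group, AMOT shRNA 3 had the same short RNA median of -0.16. However, only 1 of the 137 probes was off by more than 1 on that array. The U1 medians of the arrays other than WT 1, taken in this way, ran from -0.25 to 0.32. The U1 differences from WT are therefore given with and without WT 1, and other results against WT where leaving it out ended or made a call. The reason for its low values was not tested.

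U1 levels were highest in AMOT shRNA, lowest in YAP shRNA and between the groups in WT for all 4 probes. RNVU1-7 had the widest gap. Its log2 levels were 11.14, 11.32 and 11.17 in AMOT shRNA, 9.20, 9.23 and 9.46 in YAP shRNA and 9.77, 10.39 and 10.52 in WT. The 3 groups did not overlap, and WT 1 was the lowest WT array. The mean was 1.97-fold higher in AMOT shRNA than in WT (log2 difference 0.98, SE 0.18, n = 3 per group) and 1.91-fold lower in YAP shRNA than in WT (log2 difference -0.93, SE 0.18). Between the shRNA groups the difference was 1.91 (SE 0.18), so that AMOT shRNA was 3.76-fold higher than YAP shRNA.

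**Figure D1:**
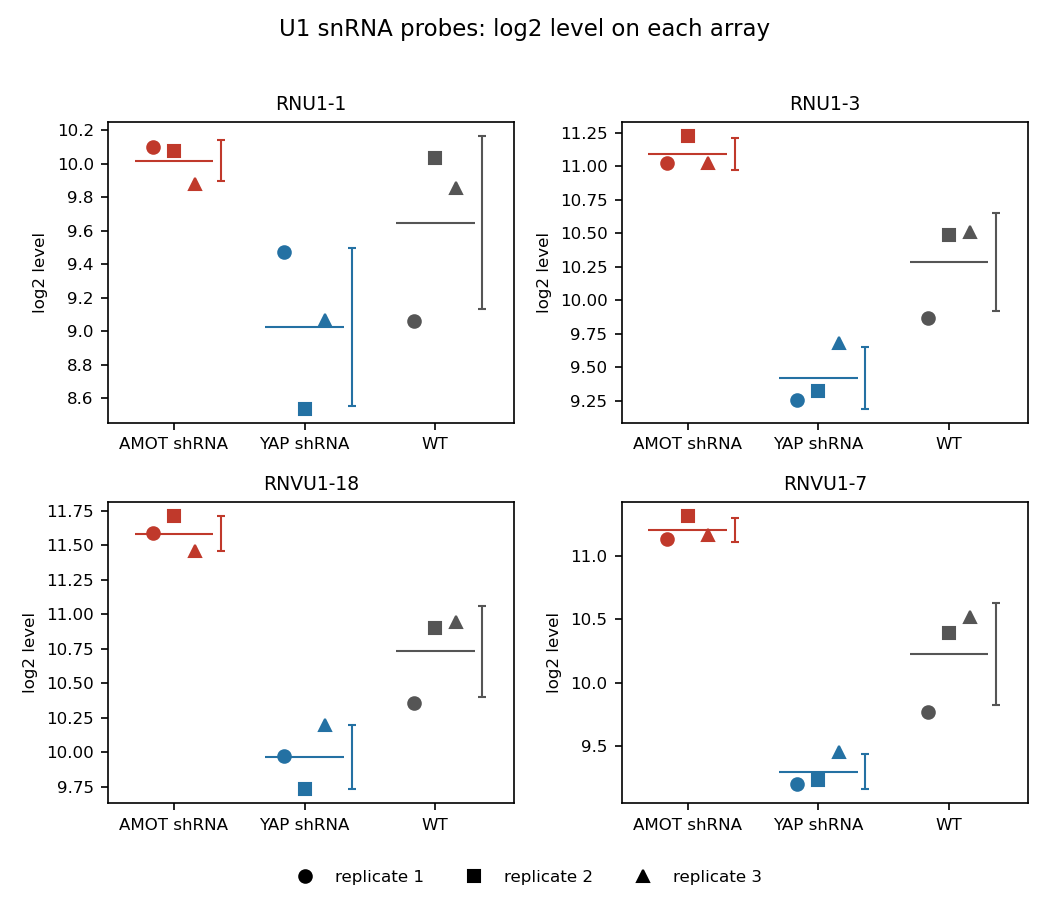
Log2 levels (vertical axis) of the 4 U1 probes on each array, by group (horizontal axis: AMOT shRNA, YAP shRNA, WT). Points are arrays, with the symbol giving the replicate number; lines are group means and bars 1 SD (n = 3). For RNU1-3, RNVU1-18 and RNVU1-7 the groups do not overlap, WT 1 is the lowest WT array in every panel, and RNU1-1 of both shRNA groups overlaps WT.

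RNVU1-18 was the brightest U1 probe. It reached 11.58, 11.71 and 11.46 in AMOT shRNA, 9.97, 9.73 and 10.20 in YAP shRNA and 10.35, 10.90 and 10.94 in WT. The groups again did not overlap. Relative to WT its mean was 1.80-fold higher in AMOT shRNA (log2 difference 0.85, SE 0.18) and 1.70-fold lower in YAP shRNA (log2 difference -0.77, SE 0.18). The order was already present in the deposited intensities before any correction. Those of RNVU1-18 were 2879.6, 2891.1 and 2945.0 in AMOT shRNA, 1152.4, 1066.6 and 1264.5 in YAP shRNA and 1315.9, 2650.5 and 2139.9 in WT. On that scale WT 1 lay close above the highest YAP shRNA array, and WT 2 below the lowest AMOT shRNA array.

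RNU1-3 behaved much as these 2 variants, although it lies in the RNU1 cluster on the short arm beside RNU1-1. Its levels were 11.02, 11.23 and 11.02 in AMOT shRNA, 9.25, 9.32 and 9.68 in YAP shRNA and 9.86, 10.48 and 10.51 in WT, with no overlap between groups. The mean was 1.74-fold higher in AMOT shRNA than in WT (log2 difference 0.80, SE 0.19) and 1.82-fold lower in YAP shRNA than in WT (log2 difference -0.87, SE 0.19).

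RNU1-1 was the dimmest of the 4 and the most scattered. It had levels of 10.10, 10.08 and 9.88 in AMOT shRNA, 9.47, 8.54 and 9.07 in YAP shRNA and 9.06, 10.03 and 9.86 in WT. Both shRNA groups overlapped WT, whose lowest array was again WT 1. Its mean differences from WT had the same directions as those of the other copies, 0.37 (SE 0.28) in AMOT shRNA and -0.62 (SE 0.28) in YAP shRNA. The shRNA groups did not overlap each other, and AMOT shRNA was 1.99-fold higher than YAP shRNA (log2 difference 0.99, SE 0.28).

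Leaving out WT 1 and normalizing the other 8 arrays anew made the difference between AMOT shRNA and WT smaller and that between YAP shRNA and WT larger for each copy. For RNVU1-7 they became 0.75 and -1.15. For RNVU1-18 they became 0.66 and -0.95, and for RNU1-3 0.59 and -1.07. RNU1-1 was left with 0.07 in AMOT shRNA against WT, where its values with all arrays came to 0.37, and with -0.92 in YAP shRNA against WT. All of these kept their sign, but RNU1-1 in AMOT shRNA was left close to WT. RNU1-1 also moved by over 1.5 times with other arrays: YAP shRNA against WT was -0.38 without YAP shRNA 2, and AMOT shRNA against WT was 0.56 without WT 2.

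Counted by overlap, 3 of 4 U1 probes had every AMOT shRNA array above every WT array; 22.6% of all tested probes did. Likewise 3 of 4 had every YAP shRNA array below every WT array, which 24.5% of all tested probes did. AMOT shRNA lay above YAP shRNA without overlap for 4 of 4, compared with 18.6% of tested probes. Both moves away from WT were shown by 3 of 4, and by 193 of the tested probes (0.863%). With WT 1 left out of the count, 3 of 4 U1 probes lay above WT in AMOT shRNA (26.8% of tested probes) and 4 of 4 lay below WT in YAP shRNA (29.2% of tested probes). The copies were picked with these comparisons known, and the probes may share targets, so these counts describe the 4 probes and nothing is read from them.

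Among themselves the probes for RNU1-3, RNVU1-18 and RNVU1-7 moved nearly as one, with Pearson correlations of their log2 levels between 0.992 and 0.996 over the 9 arrays. RNU1-1 had correlations of 0.841 to 0.877 with them. After subtracting each group's mean, the 3 pairs without RNU1-1 had correlations of 0.903 to 0.967, and the 3 pairs with it 0.574 to 0.806. The arrays share labelling and normalization and the probes may share targets, so these are descriptions over 9 points.

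Of the other small nuclear RNAs only RN7SK (7SK) and RNU11 were called with all arrays, each by both of its probes. The tested probes stand for 8 genes, so the counts below rest on few genes. Of the 11 tested probes for other snRNAs, 7SK and the signal recognition particle RNA 7SL, 2 rose and 0 fell in AMOT shRNA against WT, where 35.1% of all tested probes passed limma's test at an adjusted p under 0.05 (17.6% higher, 17.5% lower). In YAP shRNA against WT 2 rose and 2 fell, with 37.3% of all tested probes called (18.5% higher, 18.7% lower). Between AMOT shRNA and YAP shRNA 4 were higher and 0 lower, with 17.4% of all tested probes called (8.61% higher, 8.84% lower). The median log2 difference of the 11 probes was 0.13 in AMOT shRNA against WT, -0.02 in YAP shRNA against WT and 0.47 between AMOT shRNA and YAP shRNA. Over all tested probes these medians were -0.02, -0.01 and 0.00 (-0.0027) in the same order.

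RN7SK, the RNA that holds the elongation kinase P-TEFb inactive, rose in both shRNA groups. Its brighter probe had levels of 10.62, 10.73 and 10.49 in AMOT shRNA, 9.95, 9.78 and 10.10 in YAP shRNA and 9.07, 9.48 and 9.46 in WT. It was 2.42-fold higher in AMOT shRNA than in WT (log2 difference 1.27, SE 0.14, limma adjusted p = 0.00013) and 1.53-fold higher in YAP shRNA than in WT (log2 difference 0.61, SE 0.14, limma adjusted p = 0.0072). The other RN7SK probe gave 1.97 and 1.20 (limma adjusted p = 0.00021 and 0.0032), and without WT 1 1.65 and 0.88 (limma adjusted p = 8.2e-05 and 0.0015). Like U1, RN7SK was higher in AMOT shRNA than in YAP shRNA, by 0.67 and 0.78 for its 2 probes (limma adjusted p = 0.011 and 0.047); the second call was lost in 6 of 9 runs that each left out 1 array. Unlike U1, its YAP shRNA arrays lay above WT.

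RNU11, which recognises the 5′ splice site of the rare introns removed by the minor spliceosome, as U1 does for the common ones, fell in YAP shRNA. Its first probe had levels of 7.82, 8.01 and 7.71 in AMOT shRNA, 6.83, 6.86 and 7.31 in YAP shRNA and 7.65, 7.83 and 7.73 in WT. The YAP shRNA arrays lay below all others, and those of AMOT shRNA overlapped WT. The 2 RNU11 probes differed by -0.74 and -0.79 between YAP shRNA and WT (limma adjusted p = 0.0033 and 0.0014) and by 0.85 and 1.01 between AMOT shRNA and YAP shRNA (limma adjusted p = 0.0041 and 0.0010). In AMOT shRNA against WT their differences of 0.11 and 0.22 did not pass (limma adjusted p = 0.60 and 0.22). WT 1 lay close to the other WT arrays for both probes.

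**Figure D2:**
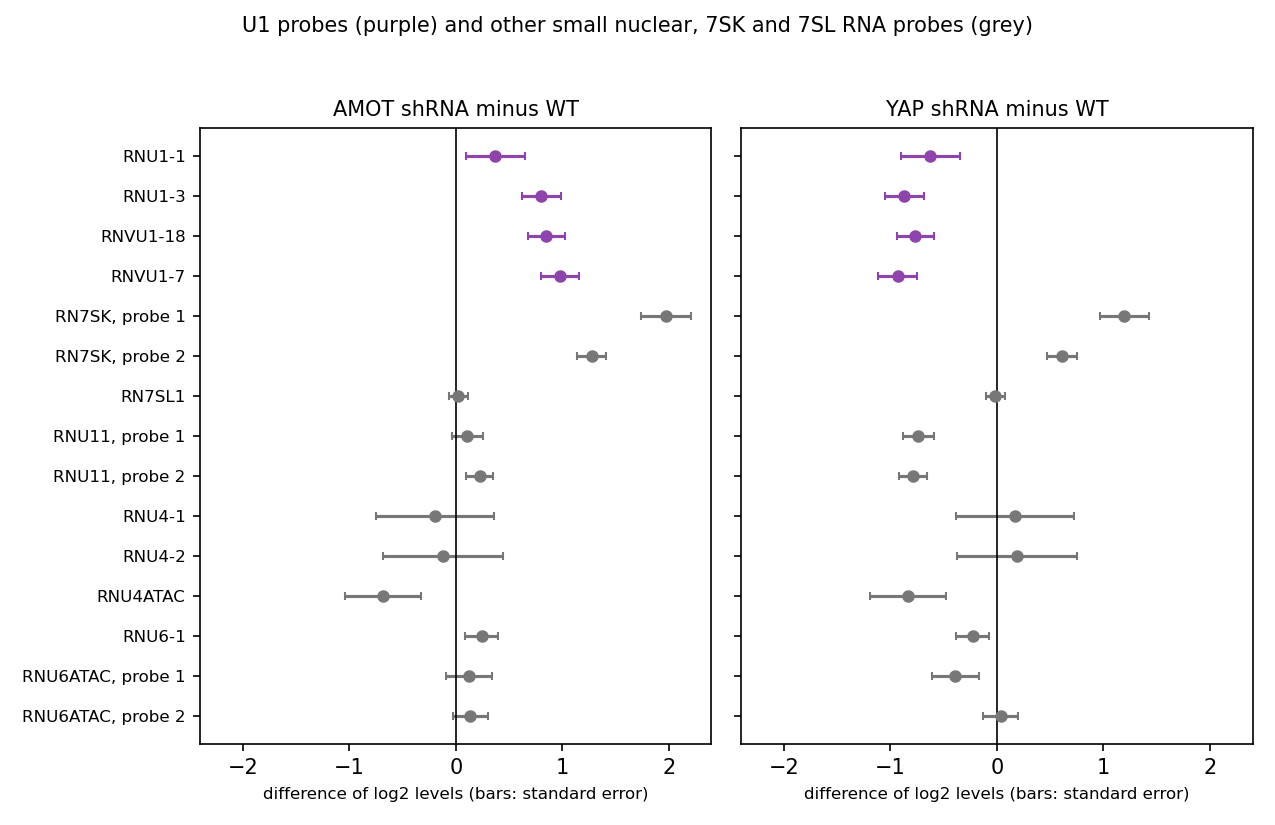
Differences of log2 levels from WT (horizontal axis, AMOT shRNA minus WT on the left, YAP shRNA minus WT on the right) for the 4 U1 probes in purple and 11 other small nuclear, 7SK and 7SL RNA probes in grey. Points are differences of group means (n = 3 per group) and bars their standard errors. The U1 probes lie right of 0 on the left and left of 0 on the right, RN7SK lies right of 0 in both, and RNU11 lies left of 0 for YAP shRNA.

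The snRNAs of the tri-snRNP, which joins the spliceosome after U1, did not pass the test. RNU6-1, the catalytic U6 RNA, had levels of 11.42, 11.30 and 10.87 in AMOT shRNA, 10.68, 10.55 and 10.96 in YAP shRNA and 10.95, 10.95 and 10.97 in WT. Its differences of 0.24 in AMOT shRNA and -0.23 in YAP shRNA had the directions of the U1 probes but did not pass (limma adjusted p = 0.26 and 0.29). RNU4-1, a U4 RNA that pairs with U6, had levels of 9.42, 9.35 and 9.13 in AMOT shRNA, 9.55, 9.23 and 10.23 in YAP shRNA and 7.92, 10.34 and 10.22 in WT. WT 1 lay over 2 units below the other WT arrays for RNU4-1 and for its near-identical copy RNU4-2. With WT 1 the RNU4-1 difference in AMOT shRNA was -0.20 (limma adjusted p = 0.82); without WT 1 it was -0.98 (limma adjusted p = 0.019), and RNU4-2 gave -0.92 (limma adjusted p = 0.027). Without WT 1 the U4 probes were thus below WT in AMOT shRNA. There the probes of RNU1-3, RNVU1-18 and RNVU1-7 were above WT, by 0.59, 0.66 and 0.75, and RNU1-1, at 0.07, was close to it. These values rest on WT 2 and WT 3 alone, and the U1 differences were not tested.

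RNU4ATAC, the U4 counterpart of the minor spliceosome, was dim and detected on only 1 YAP shRNA array and 2 WT arrays. Its differences from WT of -0.68 in AMOT shRNA and -0.84 in YAP shRNA did not pass (limma adjusted p = 0.17 and 0.096). Without WT 1 they were -1.22 and -1.38 and passed (limma adjusted p = 0.00035 and 0.00018). Counting without WT 1, 5 of the 11 probes passed in AMOT shRNA against WT, the RN7SK probes higher and RNU4-1, RNU4-2 and RNU4ATAC lower. In YAP shRNA against WT 5 passed, the RN7SK probes higher and the RNU11 probes and RNU4ATAC lower. RN7SL1, the 7SL RNA, was near the top of the scale at 15.75 to 15.93 on all 9 arrays, with differences of 0.02 and -0.02 (limma adjusted p = 0.87 and 0.91). The 2 probes for RNU6ATAC, the U6 counterpart of the minor spliceosome, gave 0.13 and 0.14 in AMOT shRNA and -0.39 and 0.04 in YAP shRNA, none of which passed (the lowest limma adjusted p was 0.19).

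**Figure D3:**
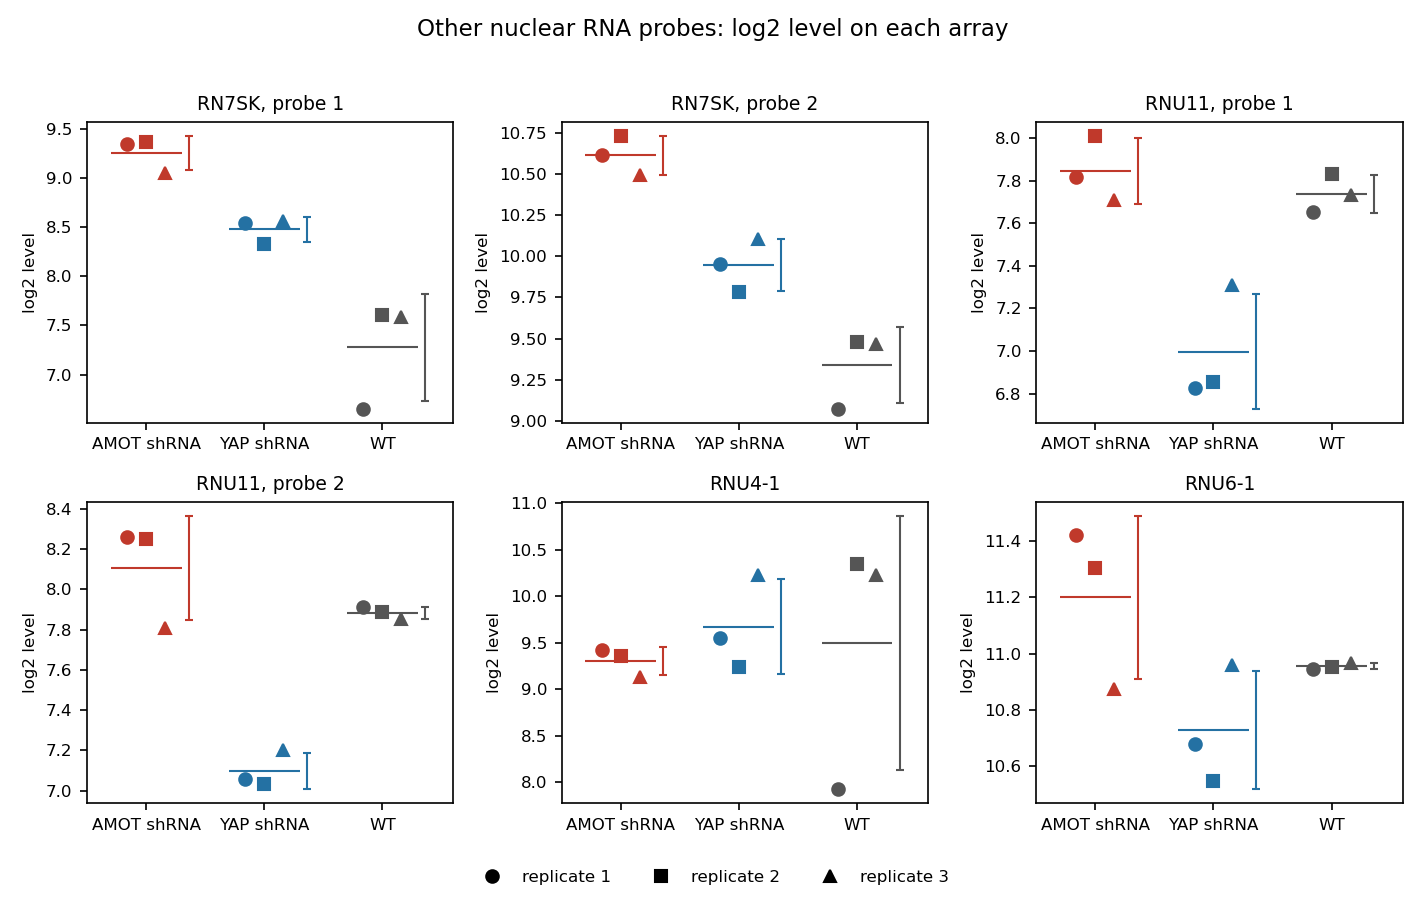
Log2 levels (vertical axis) of RN7SK, RNU11, RNU4-1 and RNU6-1 probes on each array, by group (horizontal axis: AMOT shRNA, YAP shRNA, WT), drawn as for the U1 probes with means and 1 SD (n = 3). RN7SK is lowest in WT, RNU11 is lowest in YAP shRNA, and WT 1 stands far below the other WT arrays for RNU4-1 but not for RNU11 or RNU6-1.

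Small nucleolar, Cajal body, Y, RNase P and RNase MRP RNAs were the other short RNAs named on the array, with 130 probes, 126 of them tested. In AMOT shRNA against WT 11 rose and 19 fell (17.6% and 17.5% over all tested probes), and in YAP shRNA against WT 7 rose and 40 fell (18.5% and 18.7%). Between AMOT shRNA and YAP shRNA 30 were higher and 3 lower (8.61% and 8.84%), the direction that the 4 U1 probes had between these groups. Their median log2 differences were -0.07 in AMOT shRNA against WT, -0.33 in YAP shRNA against WT and 0.28 between AMOT shRNA and YAP shRNA. The calls numbered 33 in AMOT shRNA and 53 in YAP shRNA without WT 1, 17 in AMOT shRNA against WT without AMOT shRNA 2, and 20 between the shRNA groups without YAP shRNA 2.

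Of the 7 singled out for the largest differences from WT, 6 had lower means in both shRNA groups. SCARNA14, a guide RNA of Cajal bodies, where spliceosomal snRNAs are modified, was 2.84-fold lower in AMOT shRNA than in WT (log2 difference -1.50, SE 0.19, limma adjusted p = 0.00032). In YAP shRNA it was not detected on any array, and at least 4.83-fold lower than in WT (limma adjusted p = 1.3e-05). SCARNA8 fell by 1.12 in AMOT shRNA and by 1.26 in YAP shRNA on the log2 scale (limma adjusted p = 0.0094 and 0.0048). SCARNA22 gave -0.80 in AMOT shRNA (limma adjusted p = 0.080) and fell by 1.30 in YAP shRNA (limma adjusted p = 0.011); without WT 1 the first was -1.24 and passed (limma adjusted p = 0.0013).

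Nucleolar RNAs of the C/D box type, which guide ribose methylation, were among those that fell. SNORD17 fell by 1.15 in AMOT shRNA and by 1.12 in YAP shRNA on the log2 scale (limma adjusted p = 0.0013 and 0.0014). SNORD30 fell by 0.48 in AMOT shRNA and by 1.26 in YAP shRNA (limma adjusted p = 0.0026 and 1.2e-05). RNY4, a Y RNA that binds the Ro60 protein, fell by 1.08 and by 1.70 (limma adjusted p = 0.023 and 0.0024), the first call being lost in 4 of 9 runs with 1 array left out. Against this direction SNORA61, an H/ACA nucleolar RNA, rose by 0.93 in AMOT shRNA and by 0.51 in YAP shRNA (limma adjusted p = 0.00014 and 0.0037). None of these 7 had the U1 order of AMOT shRNA above WT and YAP shRNA below it. They were picked for large differences from WT, and this order was not counted over the other tested short RNA probes.

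Genes for the proteins that make, assemble and use U1 were taken from 7 lists holding 136 genes, of which 127 had a named probe. In AMOT shRNA against WT 12 rose and 37 fell, in YAP shRNA against WT 5 rose and 38 fell, and between AMOT shRNA and YAP shRNA 10 were higher and 8 lower. Over all tested probes 17.6% were higher and 17.5% lower in AMOT shRNA, and 18.5% higher and 18.7% lower in YAP shRNA. Between the shRNA groups 8.61% of all tested probes were higher and 8.84% lower. In both comparisons with WT the lists held more falls than rises, while over all tested probes rises and falls were near equal. The lists' joint median log2 differences were -0.17, -0.16 and -0.02 in that order. So the U1 probes stood on opposite sides of WT in the shRNA groups, while the joint median of these protein genes lay below 0 in both. Single genes did not all follow this median. EXOSC6 differed from WT by 0.40 in AMOT shRNA and by -0.21 in YAP shRNA. EXOSC1 gave 0.19 and -0.38, and INTS7 0.37 and -0.17, and for these genes neither shRNA group overlapped WT. TBP stood the other way round, at -0.34 and 0.19. How many list genes had either order was not counted. Where a gene had several named probes, the one with the highest mean stood for it, and some of the probes that disagreed are named.

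Among the 11 proteins of the U1 snRNP itself, 3 fell in AMOT shRNA and 5 in YAP shRNA, and 0 rose in either. Of all tested probes 35.1% and 37.3% were called (17.6% and 18.5% higher, 17.5% and 18.7% lower). SNRPC, which stabilises pairing with the 5′ splice site, was 1.43-fold lower in AMOT shRNA (log2 difference -0.51, SE 0.11, limma adjusted p = 0.0047) and 1.55-fold lower in YAP shRNA (-0.64, limma adjusted p = 0.0014) than in WT. Its second probe gave -0.57 and -0.55. SNRNP70, which binds the first stem-loop of U1, differed by 0.05 and 0.04 (limma adjusted p = 0.72 and 0.75), and SNRPA, which binds another of its stem-loops, by -0.02 and -0.25 (limma adjusted p = 0.92 and 0.12). Hence of the 3 proteins particular to U1, SNRPC alone passed.

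The Sm proteins form the ring shared with other snRNPs. SNRPF fell by 0.33 in AMOT shRNA and by 0.34 in YAP shRNA on the log2 scale (limma adjusted p = 0.030 and 0.025). SNRPB gave -0.20 in AMOT shRNA (limma adjusted p = 0.18) and fell by 0.38 in YAP shRNA (limma adjusted p = 0.022); in AMOT shRNA its second probe fell by 0.46 (limma adjusted p = 0.0082). SNRPD2 fell by 0.27 in AMOT shRNA (limma adjusted p = 0.031) and gave -0.09 in YAP shRNA (limma adjusted p = 0.42). For SNRPE the probes disagreed: the brighter fell by 0.65 in YAP shRNA with overlapping groups (limma adjusted p = 0.047, lost in 8 of 9 runs with 1 array left out), and the dimmer, not detected on any WT array, was at least 1.45-fold higher there (limma adjusted p = 0.011). Between AMOT shRNA and YAP shRNA 0 of the 11 passed limma's test, where 17.4% of all tested probes did. Without WT 1, 1 of the 11 passed in AMOT shRNA and 2 in YAP shRNA, the calls of SNRPF, SNRPB, SNRPD2 and the brighter SNRPE probe being lost. With 1 array left out at a time, 1 to 4 passed in AMOT shRNA and 1 to 4 in YAP shRNA.

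Of 12 splicing factors that work with U1, 6 rose and 1 fell in AMOT shRNA (17.6% and 17.5% over all tested probes). In YAP shRNA 1 rose and 1 fell (18.5% and 18.7% over all tested probes). The 7 calls in AMOT shRNA became 1 under median scaling, and 3 without WT 2 or without AMOT shRNA 2. TIA1, which recruits U1 to weak 5′ splice sites, was 1.50-fold higher in AMOT shRNA than in WT (limma adjusted p = 0.0014) and higher in AMOT shRNA than in YAP shRNA by 0.35 on the log2 scale (limma adjusted p = 0.033). In YAP shRNA against WT its difference was 0.23 (limma adjusted p = 0.085). Between the shRNA groups further probes of TIA1 gave 0.51 and 0.27 (limma adjusted p = 0.011 and 0.19). Its relative TIAL1 rose by 0.45 in AMOT shRNA (limma adjusted p = 0.039), although a dim probe of it gave -0.02; a further probe rose in both groups, by 0.61 and 0.33 (limma adjusted p = 0.0020 and 0.035). LUC7L3, a homologue of a yeast U1 snRNP protein, rose in both groups, by 0.46 and 0.55 (limma adjusted p = 0.0053 and 0.0019), with a further probe at -0.07 and -0.02. DDX5, an RNA helicase that acts on the U1 and 5′ splice site duplex, rose by 0.29 in AMOT shRNA (limma adjusted p = 0.044), and a dim probe of it gave -0.03. NCBP1, the large subunit of the nuclear cap-binding complex, was the member that fell, by 0.79 and 0.58 (limma adjusted p = 0.00037 and 0.0019). Of 9 runs with 1 array left out, the AMOT shRNA call was lost in 7 for DDX5 and in 6 for TIAL1, including that without WT 1 for TIAL1, and the TIA1 call between the shRNA groups in 6.

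**Figure D4:**
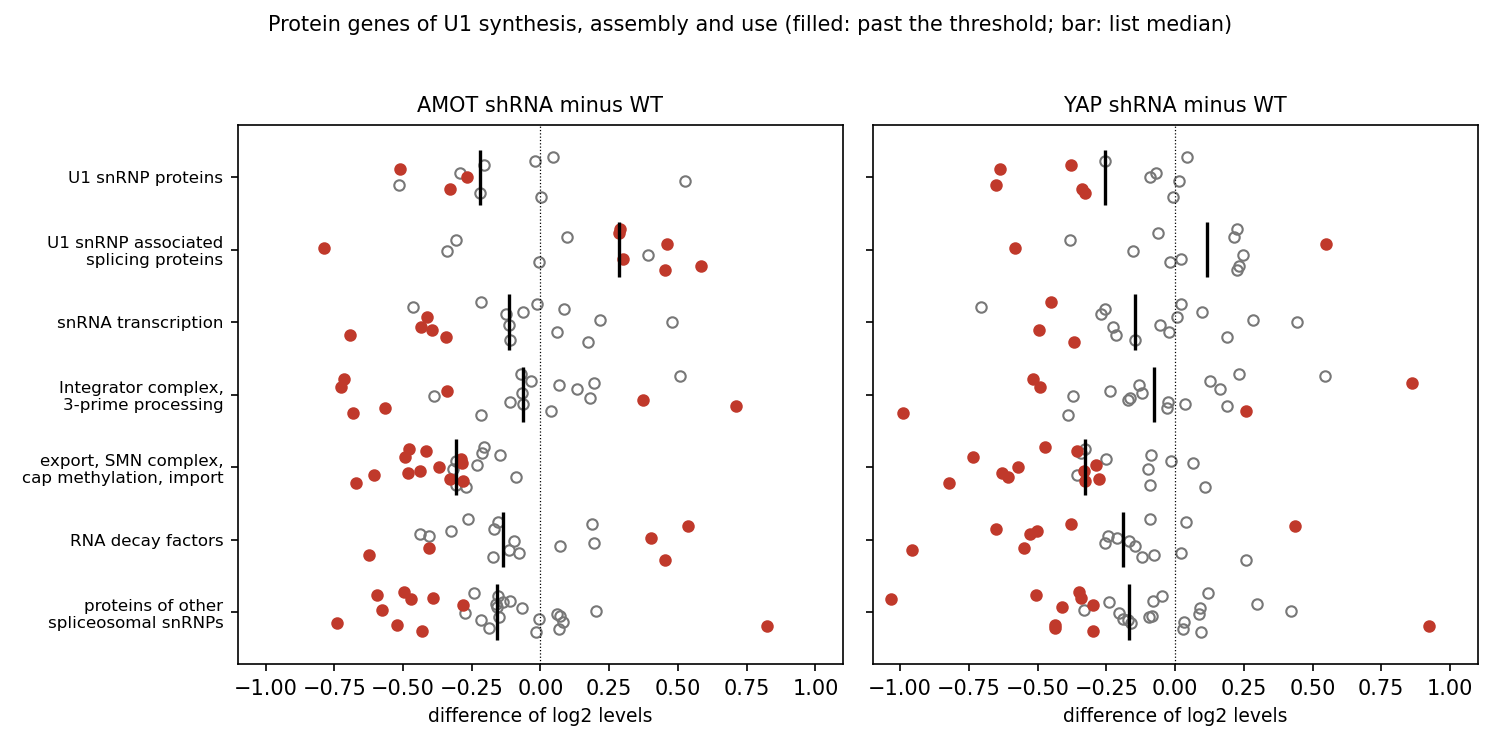
Differences of log2 levels from WT (horizontal axis, AMOT shRNA minus WT on the left, YAP shRNA minus WT on the right) for the genes of 7 protein lists (vertical axis). Each point is a gene, filled where its adjusted p was under 0.05, and the bar is the list's median. The lists of U1 snRNP proteins, of snRNA transcription and of export, SMN complex, cap methylation and import hold filled points only left of 0 in both panels.

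Of 17 factors for snRNA transcription, 5 fell in AMOT shRNA and 3 in YAP shRNA, and 0 rose. All tested probes had 35.1% and 37.3% called (17.6% and 18.5% higher, 17.5% and 18.7% lower). SNAPC4, the large SNAPc subunit that contacts snRNA promoters, fell by 0.44 in AMOT shRNA (limma adjusted p = 0.0061), and SNAPC5 fell by 0.39 in AMOT shRNA and by 0.49 in YAP shRNA (limma adjusted p = 0.035 and 0.012). The elongation factor SUPT6H fell by 0.69 in AMOT shRNA (limma adjusted p = 0.015; not called without AMOT shRNA 2), and CDK9, the P-TEFb kinase, fell by 0.45 in YAP shRNA (limma adjusted p = 0.0076). ICE2, of the little elongation complex at snRNA genes, fell by 0.41 in AMOT shRNA (limma adjusted p = 0.015). In YAP shRNA its probes ran apart, at 0.01 for the brightest and -1.15 for another.

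ZNF143 and TBP differed between the shRNA groups in opposite senses. ZNF143, an activator that binds snRNA promoters, was higher in AMOT shRNA than in YAP shRNA by 0.54 (limma adjusted p = 0.014); against WT it differed by 0.17 in AMOT shRNA (limma adjusted p = 0.29) and fell by 0.37 in YAP shRNA (limma adjusted p = 0.036). TBP, the TATA-binding protein that works with SNAPc, was lower in AMOT shRNA than in YAP shRNA by a log2 difference of -0.53 (limma adjusted p = 0.0098). Against WT it fell by 0.34 in AMOT shRNA (limma adjusted p = 0.035) and differed by 0.19 in YAP shRNA (limma adjusted p = 0.21). Without WT 1 the list held 3 called genes in AMOT shRNA and 2 in YAP shRNA, the calls against WT of SNAPC5 and TBP in AMOT shRNA and of ZNF143 in YAP shRNA being lost. With 1 array left out at a time the counts were 2 to 5 and 1 to 4, lowest without AMOT shRNA 2 and without YAP shRNA 1.

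The Integrator complex and the enzymes that trim snRNA 3′ ends held 2 of 20 higher and 5 lower in AMOT shRNA, and 2 higher and 3 lower in YAP shRNA. There 35.1% and 37.3% of all tested probes were called (17.6% and 18.5% higher, 17.5% and 18.7% lower). INTS1 fell by 0.72 and 0.52 (limma adjusted p = 0.0025 and 0.012), and INTS13 by 0.73 and 0.49 (limma adjusted p = 0.0011 and 0.0081). TOE1, an exonuclease that trims snRNA tails, fell by 0.68 in AMOT shRNA and by 0.99 in YAP shRNA (limma adjusted p = 0.0037 and 0.00045). INTS11, the endonuclease of the complex, gave 0.20 in AMOT shRNA (limma adjusted p = 0.17) and rose by 0.86 in YAP shRNA (limma adjusted p = 0.00021). Its second probe gave -0.02 in AMOT shRNA and rose by 0.53 in YAP shRNA (limma adjusted p = 0.93 and 0.016). NABP1, a single-stranded DNA-binding protein found with Integrator subunits, rose by 0.71 in AMOT shRNA (limma adjusted p = 0.0011), where its relative NABP2 fell by 0.57 (limma adjusted p = 0.0085). INTS7 rose by 0.37 in AMOT shRNA (limma adjusted p = 0.043), a call lost in 7 of 9 runs with 1 array left out (0.30 to 0.50). In YAP shRNA against WT these 3 gave 0.19, -0.03 and -0.17, none of which passed (the lowest limma adjusted p was 0.21).

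Of 21 genes for export, assembly by the SMN complex, cap methylation and import, 12 fell in AMOT shRNA and 11 in YAP shRNA (17.5% and 18.7% over all tested probes), with 0 higher in either. Median scaling left 7 and 5 of these calls, and leaving out 1 array at a time 5 to 10 and 5 to 10. WDR77, a partner of the methylase that marks Sm proteins, fell by 0.67 in AMOT shRNA and by 0.82 in YAP shRNA (limma adjusted p = 0.00043 and 0.00013). GEMIN5, which recognises the snRNA within the SMN complex, fell by 0.49 and 0.73 (limma adjusted p = 0.015 and 0.0018). The SMN1 probe fell by 0.48 and 0.63 (limma adjusted p = 0.031 and 0.0088), and the SMN2 probe fell by 0.61 in AMOT shRNA (limma adjusted p = 0.046) and gave -0.36 in YAP shRNA (limma adjusted p = 0.21). SMN1 and SMN2 are near-identical, and their probes may not tell them apart. SNUPN, the import adaptor for capped snRNPs, gave -0.09 in AMOT shRNA (limma adjusted p = 0.72) and fell by 0.61 in YAP shRNA (limma adjusted p = 0.018). KPNB1, the importin that carries it, fell by 0.29 in AMOT shRNA (limma adjusted p = 0.029) and gave 0.07 in YAP shRNA (limma adjusted p = 0.59). Without WT 1 the called genes numbered 8 in AMOT shRNA and 7 in YAP shRNA, the calls of SMN2 and KPNB1 in AMOT shRNA and of SNUPN in YAP shRNA being lost. Over 9 runs with 1 array left out, AMOT shRNA calls were lost in 6 for SMN2, 5 for KPNB1 and 4 for SMN1, and for GEMIN5 in the run without AMOT shRNA 2.

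Of 18 decay factors that act on snRNAs, 3 were higher and 2 lower in AMOT shRNA, and 1 higher and 6 lower in YAP shRNA. There 35.1% and 37.3% of all tested probes were called (17.6% and 18.5% higher, 17.5% and 18.7% lower). RBM7, the RNA-binding subunit of the nuclear exosome targeting complex, gave -0.12 in AMOT shRNA (limma adjusted p = 0.55) and fell by 0.96 in YAP shRNA (limma adjusted p = 0.00057). Between AMOT shRNA and YAP shRNA it differed by 0.84 (limma adjusted p = 0.0031), as did the exosome subunits EXOSC6 by 0.61 and EXOSC1 by 0.56 (limma adjusted p = 0.0032 and 0.0046). EXOSC10, the nuclear exosome's exonuclease, rose by 0.54 in AMOT shRNA and by 0.44 in YAP shRNA (limma adjusted p = 0.0041 and 0.011), while its helicase MTREX fell by 0.41 and 0.55 (limma adjusted p = 0.014 and 0.0029). In YAP shRNA further probes of EXOSC10 gave 0.48 and 0.25 (limma adjusted p = 0.0033 and 0.12). XRN2, a nuclear 5′ to 3′ exonuclease, fell by 0.62 in AMOT shRNA (limma adjusted p = 0.0084). ZFC3H1, of the poly(A) exosome targeting connection, rose by 0.45 in AMOT shRNA (limma adjusted p = 0.0085), where its second probe gave 0.29 (limma adjusted p = 0.096). The exosome subunits EXOSC2 and EXOSC4 fell in YAP shRNA by 0.65 and 0.53 (limma adjusted p = 0.0067 and 0.041), the EXOSC4 call being lost in 5 of 9 runs with 1 array left out, that without WT 1 included.

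Proteins of the other spliceosomal snRNPs fell in 9 of 28 and rose in 1, in AMOT shRNA and in YAP shRNA alike. Of all tested probes 35.1% and 37.3% were called (17.6% and 18.5% higher, 17.5% and 18.7% lower). In YAP shRNA the 10 calls became 6 without WT 1 or without YAP shRNA 1. The riser in both was SNRNP200, the helicase that unwinds U4 from U6, at 0.82 and 0.92 (limma adjusted p = 0.00035 and 0.00017). LSM6, of the ring that binds U6, fell by 0.47 in AMOT shRNA and by 1.03 in YAP shRNA (limma adjusted p = 0.0056 and 6.5e-05), and LSM3 of the same ring fell by 0.60 and 0.50 (limma adjusted p = 0.0048 and 0.010). PRPF8, the core protein of U5, fell by 0.57 in AMOT shRNA (limma adjusted p = 0.0044), as did SF3B5 of U2 by 0.74 (limma adjusted p = 0.00067). SNRNP40 of U5 fell by 0.44 in YAP shRNA (limma adjusted p = 0.012), with a second probe at -0.33 (limma adjusted p = 0.054); the first was not called without YAP shRNA 1. PRPF3, a U4/U6 protein, was lower in AMOT shRNA than in YAP shRNA by a log2 difference of -0.46 (limma adjusted p = 0.017), which was lost in 3 of 9 runs with 1 array left out.

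Genes next to the U1 loci were looked at after the U1 values were seen. Within 500000 bases of RNU1-1 or RNU1-3 lay 11 genes with a tested probe, of which 1 rose and 3 fell in AMOT shRNA, and likewise in YAP shRNA, a share near the 35.1% and 37.3% of all tested probes called. CPLANE2 was at least 4-fold lower in AMOT shRNA, where it was not detected on any array, and 3.19-fold lower in YAP shRNA than in WT (limma adjusted p = 9.6e-07 and 2.3e-06). SZRD1 and NECAP2 fell and the pseudogene CROCCP3 rose in both shRNA groups. None of these 4 was higher in one shRNA group and lower in the other relative to WT. Near RNVU1-7 lay 6 such genes, and near RNVU1-18 none. Of these 6, 0 rose and 3 fell in AMOT shRNA against WT, and 1 rose and 0 fell in YAP shRNA against WT. Over all tested probes 17.6% rose and 17.5% fell in AMOT shRNA, and 18.5% and 18.7% in YAP shRNA. BCL9, GPR89B and ACP6 fell in AMOT shRNA, BCL9 by 0.87 (limma adjusted p = 0.00027). NBPF11 rose in YAP shRNA by 0.38 (limma adjusted p = 0.040). A link between the neighbours and the U1 signals was not tested.

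Among 15257 other named probes, those most like RNVU1-18 over the 9 arrays by Pearson correlation of log2 levels were PIGM (0.974), TENT2 (0.970), KDELR3 (0.967), FBXO28 (0.966) and TWF2-DT (0.963). They were picked for this likeness, so their differences are a description. PIGM, a mannosyltransferase of GPI anchors, averaged 11.71 ± 0.04 in AMOT shRNA, 11.22 ± 0.06 in YAP shRNA and 11.43 ± 0.18 in WT (SD, n = 3). TENT2, a poly(A) polymerase, averaged 11.53 ± 0.07 in AMOT shRNA, 10.75 ± 0.11 in YAP shRNA and 11.19 ± 0.09 in WT. FBXO28, an F-box protein, averaged 11.69 ± 0.05 in AMOT shRNA, 10.79 ± 0.06 in YAP shRNA and 11.23 ± 0.10 in WT. For KDELR3, a retrieval receptor of the endoplasmic reticulum, and for TWF2-DT the differences between AMOT shRNA and YAP shRNA were 0.50 and 1.00. All 5 differed between AMOT shRNA and YAP shRNA by less than RNVU1-18, whose difference was 1.62.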

How the data were processed

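Total RNA of HEK293 cells was labelled and hybridised to 9 Illumina bead arrays, 3 per group. The deposited table gives, per the file headers, a linear intensity and a detection p-value per probe and array, not normalized. A second deposited table holds the authors' normalized intensity values of 20062 probes, by a method not given in the sources used here, and served as an alternative. Slide positions and control beads were not used here.

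The limma package 3.58.1 under R 4.3.3 normalized the intensities (neqc: normexp background with the negative controls inferred from the detection p-values, offset 16, quantile, log2). Probes with detection p under 0.05 on at least 3 of 9 arrays were kept (22375). One linear model with 3 group means (6 residual and 3.53 prior degrees of freedom) gave 2-sided moderated tests, with Benjamini-Hochberg adjustment within each contrast over all tested probes and a threshold of 0.05; it was tested on simulated data. Standard errors are those of this fit, and 3 arrays per group limit the precision. A probe undetected on every array of the dimmer group gets a fold bound: the mean of the brighter group is set against the lowest detected signal. Quantile normalization makes changes relative to all measured transcripts.

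Symbols came from GEO's platform annotation for the probes of the second table. It gave 1 symbol to 15467 probes and several to 4, and left 4591 of the second table unnamed. The other probes of the array carried no symbol here, so a gene without a named probe may still have a probe among them. Positions came from the RefSeq gene table of GRCh38.p14. The U1 copies and gene lists were chosen with earlier results of these data known. The text names the U1 probes, the hairpin targets, every tested probe of other small nuclear RNAs, short RNA probes with the 5 largest absolute differences in each comparison with WT, called list members with the 4 largest absolute differences per contrast, SNRNP70, SNRPA and SNRPC, and the 5 named genes most correlated with RNVU1-18. Genes near the loci, and singled-out second probes, were added after values were seen. Alternatives were other background, scaling and filter settings, the second table, replicate blocks, fits of 2 groups and leaving out each array. Replicate numbers did not pair the samples: deviations from group means of same-numbered arrays had correlations of -0.131 to 0.0986.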

Additional observations from a re-analysis of the deposited data

Results flagged for a closer look

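For each U1 probe every AMOT shRNA array lay above the WT mean and every YAP shRNA array below it. For RNU1-1 this held only with WT 1 in the mean: AMOT shRNA 3, at 9.88, lay below the mean of WT 2 and WT 3, which were at 10.03 and 9.86. The log2 differences between AMOT shRNA and YAP shRNA were 0.99 for RNU1-1, 1.67 for RNU1-3, 1.62 for RNVU1-18 and 1.91 for RNVU1-7. That the effects against WT differ between the shRNA groups was not tested for these probes, since they were chosen with the results known, and both groups share the WT arrays.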

How the results depend on the processing

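All 228 recomputed U1 differences kept their sign; over the other settings with all arrays RNVU1-7 ranged from 0.87 to 0.98 (AMOT shRNA minus WT), -0.93 to -0.80 (YAP shRNA minus WT) and 1.70 to 1.91 (AMOT shRNA minus YAP shRNA). Median scaling made 60.5% of calls in YAP shRNA against WT higher (3803 higher, 2478 lower; 4147 and 4191 in the report) and 36.1% between AMOT shRNA and YAP shRNA (863 higher, 1527 lower, 2390 in all; 1926 and 1978, 3904 in all, in the report). The list counts moved by over 1.5 times in the cases below; the cause was not tested.

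Counts are given for AMOT shRNA against WT, YAP shRNA against WT and AMOT shRNA against YAP shRNA, as A, Y and D. The report's counts were 3, 5 and 0 for U1 proteins, 7, 2 and 2 for U1-associated proteins, 5, 3 and 3 for transcription, 7, 5 and 4 for Integrator, 12, 11 and 1 for export and assembly, 5, 7 and 5 for decay, 10, 10 and 3 for other snRNP proteins and 2, 4 and 4 for other snRNA probes. Under median scaling U1 proteins had 2 (Y), U1-associated 1 (A) and 0 (D), transcription 2 (A), 1 (Y) and 1 (D), Integrator 3 (Y) and 1 (D), export and assembly 7 (A), 5 (Y) and 0 (D), decay 2 (A) and 2 (D), other snRNP proteins 5 (Y) and other snRNA probes 2 (D). With no background correction U1 proteins had 7 (A) and 1 (D), transcription 5 (Y), Integrator 8 (Y), export and assembly 4 (D) and decay 9 (A). With the second deposited table U1 proteins had 7 (A) and 1 (D), U1-associated 5 (Y), transcription 6 (Y), Integrator 9 (Y), export and assembly 4 (D), decay 9 (A) and other snRNP proteins 5 (D). With detection p under 0.01 on all 9 arrays U1 proteins had 6 (A), Integrator 8 (Y), export and assembly 4 (D) and decay 9 (A). With no filter U1 proteins had 1 (A), U1-associated 4 (A) and 0 (D), transcription 3 (A), export and assembly 6 (A), decay 3 (D) and other snRNP proteins 6 (Y). With offset 50 export and assembly had 3 (D). With 2 groups in the fit U1 proteins had 1 (A), U1-associated 3 (A), transcription 3 (A) and export and assembly 7 (A) and 2 (D). With the replicate number as a block U1-associated proteins had 4 (A) and 0 (D) and transcription 3 (A), no other count moved by over 1.5 times, and all tested probes gave 7233 (A), 7837 (Y) and 3304 (D) calls.

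Leaving out 1 array at a time, calls over all probes ranged over 6253 to 7512 (A), 6630 to 8183 (Y) and 2475 to 3972 (D). Ranges were 1 to 4 (A), 1 to 4 (Y) and 0 to 1 (D) for U1 proteins, 3 to 6 (A), 2 to 3 (Y) and 0 to 2 (D) for U1-associated, 2 to 5 (A), 1 to 4 (Y) and 1 to 4 (D) for transcription, 5 to 7 (A), 4 to 6 (Y) and 2 to 4 (D) for Integrator, 5 to 10 (A), 5 to 10 (Y) and 0 to 2 (D) for export and assembly, 5 to 7 (A), 6 to 8 (Y) and 3 to 5 (D) for decay, 8 to 10 (A), 6 to 11 (Y) and 2 to 3 (D) for other snRNP proteins, 2 to 5 (A), 4 to 5 (Y) and 3 to 5 (D) for other snRNA probes and 17 to 33 (A), 40 to 53 (Y) and 20 to 36 (D) for the remaining short RNAs. Of the named genes' tests, 235 recomputed values lost and 54 gained a call, and 3458 stayed on their side. Probes near background, such as RNU4ATAC and the dim SNRPE probe, are limited by signal over background.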
